A study of Homo sapiens with 6 samples.

Results

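The 55 genes described here form the transforming growth factor beta (TGF-beta) and bone morphogenetic protein (BMP) signalling module, a list of its ligands, receptors, SMAD proteins, antagonists and direct targets. The genes were listed by name and role, and all 55 were found among the 62754 genes of the count table. RNA-seq was done on 6 libraries of HEK293, a human embryonic kidney line, with 3 from control cells and 3 from cells in which FAM60A was knocked out. The titles of the samples give HEK293, and another label gives HEK293T, a derivative that carries the SV40 large T antigen. FAM60A was disrupted in a single pool of cells selected with puromycin, not in a clone, by Cas9 and guide RNAs to 3 regions of FAM60A. All cells grew in medium with 10% fetal bovine serum, and the labels name no added ligand or receptor inhibitor, so the values are levels in serum. Nothing in the labels says that the libraries of a group came from separate cultures, so p-values measure only the spread between these libraries.

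Ligands of this family bind a pair of type II and a pair of type I serine/threonine kinase receptors, and the activated type I receptor phosphorylates receptor-regulated SMADs. SMAD2 and SMAD3 mainly carry TGF-beta and activin signals, whereas SMAD1, SMAD5 and SMAD9 carry BMP signals, and both sets enter the nucleus with SMAD4. Inhibitory SMADs, the pseudoreceptor BAMBI and the corepressors SKI, SKIL and TGIF limit the response, and several of these are themselves induced by it. FAM60A is a subunit of the SIN3 histone deacetylase complex, which is known mainly for repressing transcription. The paper adds that SIN3A can also take part in activation, depending on context. The question asked here is which genes of this module differ in RNA level when FAM60A is disrupted.

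The control libraries held 92736586, 93172005 and 93346824 counts in total (replicates 1 to 3), and the knockout libraries 88361827, 91279417 and 90771711. FAM60A, listed under its current symbol SINHCAF, had 11028, 10165 and 12792 counts in control and 5684, 5793 and 5449 in knockout libraries. The groups did not overlap, and the knockout level was 55.5% of the control level in CPM (counts scaled by library size and TMM factor), so much FAM60A RNA was still counted. The two-sided p was 0.1 by an exact permutation test over libraries, which with 3 against 3 can give none smaller. By edgeR's quasi-likelihood test with Benjamini-Hochberg adjustment the log2 fold change was -0.85 (SE 0.11, adjusted p = 0.00863, and 8.01e-10 to 0.0736 over the 12 alternatives). It did not pass in the fits that left out a knockout replicate or used the replicate number as a block, and its log2 fold change was -0.78 without control replicate 3. The paper reports the knockout as established by immunoblotting and qRT-PCR, and RNA counts do not measure FAM60A protein.

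Control replicate 3 stood apart from the other controls. None of the 52 module genes that could be tested differed by 2-fold or more between control replicates 1 and 2 (1.43% of all genes tested), or between any pair of knockout libraries (1.67%, 1.7% and 2.16%). Control replicate 3 was at least 2-fold apart from control replicate 1 in 15 of the 52 genes and from control replicate 2 in 17, against 23.6% and 23% of all genes. Knockout replicates 1, 2 and 3 were that far from control replicate 1 in 19, 18 and 19 of the genes (all genes, 22.4%, 21.5% and 22.1%), and from control replicate 2 in 19, 20 and 20 (all genes, 23.2%, 21.8% and 23.5%). From control replicate 3 they were that far apart in 8, 9 and 6 of the genes (all genes, 15.6%, 14% and 16%). The log2 fold changes of the module genes are therefore given with all 6 libraries and without control replicate 3, and passing means an edgeR adjusted p of at most 0.05.

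All 10 markers of HEK293 cells were expressed in every library, with KRT8 the most abundant, but their summed level was 2165 and 2186 CPM in control replicates 1 and 2, 1308 CPM in control replicate 3, and 1126, 1231 and 1114 CPM in the knockout libraries. KRT8 (712, 749 and 387 CPM in control), VIM (693, 706 and 299), KRT18, CDH2 and LIN28B were highest in control replicates 1 and 2. NEFL (78.5, 80.7 and 143 against 83.8, 95.9 and 82.6 in knockout libraries) and PAX2 (1.48, 1.67 and 5.97 against 1.95, 1.89 and 2.06) were instead highest in control replicate 3. INA was also highest there, but all its controls were far above the knockout libraries (38.5, 36.4 and 46.6 against 11.4, 11.6 and 9.99). Its log2 fold change was -1.88 (edgeR adjusted p = 0.0026). KRT8, narrowly, NEFM and IGF2BP1 were likewise higher in every control than in any knockout library. Of 4 leukocyte markers none reached 10 counts in any library. Of 6 fibroblast markers COL1A2 had at most 2 counts in any library, COL1A1 was the most abundant, and the sum lay between 24.5 and 29.3 CPM. Within that list DCN had 0, 1 and 1 counts in control and 30, 33 and 33 in knockout libraries, and LUM had 244, 223 and 47 against 789, 642 and 727, while COL1A1 went the other way with 2446, 2526 and 1854 against 1145, 1401 and 1324. COL3A1 (45, 49 and 368 against 156, 155 and 164) and POSTN (7, 14 and 100 against 41, 27 and 32) were highest in control replicate 3. Of 8 markers of MDA-MB-231, a breast cancer line used elsewhere in the study, KRT81 and MSLN had at most 10 counts in any library. Their sum was 465 and 473 CPM in control replicates 1 and 2 and between 138 and 167 CPM in the other 4 libraries, and ANXA1, the most abundant in the first pair, had 27771, 28335 and 1640 counts in control and 1858, 1703 and 1748 in knockout libraries. In the same list PLAU had 263, 245 and 267 counts against 392, 403 and 389, CD44 2938, 3016 and 2092 against 3024, 3053 and 3136, and AXL 38, 41 and 115 against 91, 88 and 72. CAV1 (8913, 8758 and 5610 against 5699, 5581 and 5169) and CAV2 (5320, 5074 and 3625 against 3015, 3037 and 3046) were, like ANXA1, highest in control replicates 1 and 2. ANXA1 made up most, but not all, of the fall of the sum. These marker values moved with the groups or with control replicate 3, and their part in the results below was not tested. In bulk RNA, fewer cells of a type and less RNA per cell cannot be told apart.

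Of the 52 genes tested, 15 passed an adjusted p of 0.05 with all 6 libraries, 7 higher and 8 lower in the knockout, which is 28.8% beside 16.6% of all 20992 genes tested (7.96% higher, 8.67% lower). The higher genes were TGFB3, LTBP3, INHBB, FST, BMPR1B, ACVR2A and TGFBR3, which are ligands, ligand-binding proteins and receptors. The lower genes were TGFB1, BMP2, GDF6, SMAD4, SMAD6, SMURF1, SKI and ID4. With a log2 fold change of at least 1 in either direction as well, 4 genes remained (TGFB3 higher, and BMP2, GDF6 and ID4 lower), which is 7.69% beside 7.06% of all genes (3.34% higher, 3.72% lower). With DESeq2 the share at this fold was 19.2% beside 9.14%. The median log2 fold change was -0.17 over the 52 genes and -0.01 over all genes, and the median absolute log2 fold change was 0.63 and 0.39. Scaling to library size without TMM moved the all-gene median to -0.12 and the split of calls to 1235 higher and 2668 lower (1671 and 1820 with TMM), and the module genes called then numbered 3 higher and 9 lower.

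Without control replicate 3, 41 of the 52 genes passed (17 higher, 24 lower), beside 65.6% of all genes (32.4% higher, 33.2% lower), and 20 did so with a log2 fold change of at least 1 in either direction (10 higher, 10 lower), beside 22.9% (13.1% higher, 9.75% lower). The CPM of the 3 knockout libraries lay wholly above the 3 controls for 12 genes and wholly below for 17, and such separation was seen in 41.6% of all genes (21.5% above, 20.1% below). ID4 alone passed in each of the 6 fits that left out 1 library. SKI also passed without control replicate 1, and the other 13 genes passed in no such fit other than the one without control replicate 3. NODAL, LEFTY1 and LEFTY2, of which the near-identical LEFTY pair can share reads, had at most 24 counts in any library and were left out by the filter on low counts.

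**Figure D1:**
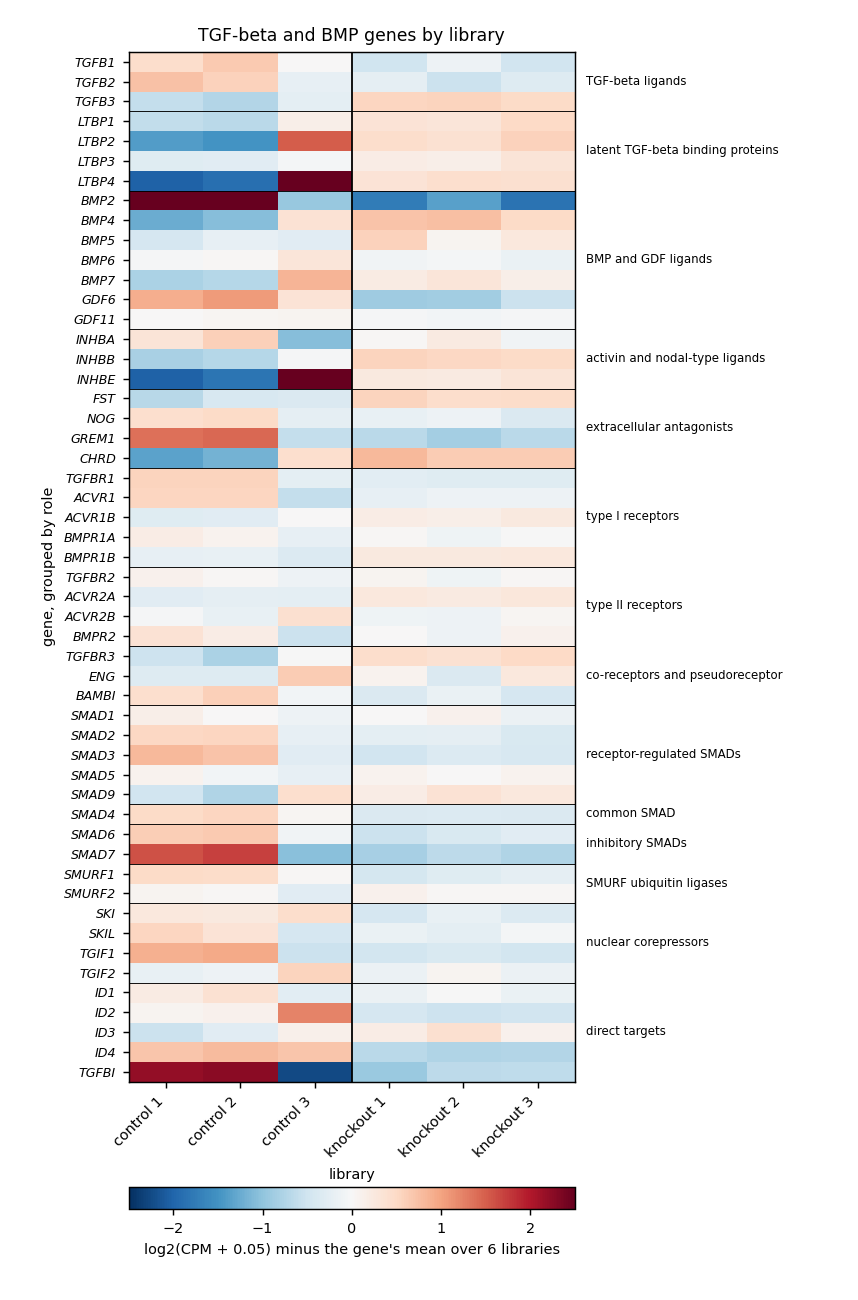
Log2(CPM + 0.05) of the 52 tested genes (rows, grouped by role) in each of the 6 libraries (columns), as the difference from the gene's mean over all libraries (red, above the mean; blue, below; colours saturate at the ends of the scale). Control replicate 3 differs in colour from control replicates 1 and 2 for LTBP4, INHBE, BMP2, SMAD7 and TGFBI, whereas ID4 is high in all 3 controls and low in all 3 knockout libraries.

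Levels of different genes were compared per kilobase of exon. The most abundant gene in the controls was ID4, an inhibitor of basic helix-loop-helix factors, at 70 CPM per kb, followed by ID2 at 45.2 CPM per kb, although control replicate 3 set the latter (71.5 against 31.5 and 32.6 CPM per kb). In the knockout libraries the means were 25.7 CPM per kb for ID4, 30 for ID3 and 21.7 for ID2, and the ranges of ID4 (25.2 to 26.5) and ID3 (27.6 to 33.6) were adjacent without overlap. TGFB1 was the most abundant ligand, at 24.9 CPM per kb in the controls and 14.9 in the knockout, against 1.24 and 2.54 for TGFB3. Among the other roles BMP6 led the BMP ligands in the controls (12.2 CPM per kb), LTBP1 and, through control replicate 3, LTBP4 the latent TGF-beta binding proteins (10.4 and 10.6), ACVR1B the type I receptors (10.4, although TGFBR1 led in control replicates 1 and 2 with 11 against 9.57 and 9.76), BMPR2 the type II receptors (3.99), NOG the antagonists (5.33) and SMAD5 the receptor-regulated SMADs (10.5). BMP2 stood next to BMP6 in control replicates 1 and 2 (10.3 and 10.6 CPM per kb, against 5.21 and 5.51 for BMP7), whereas in control replicate 3 BMP7 was at 16.2 and BMP2 at 0.689. INHBE led the activin-type ligands in the control mean (2.8 CPM per kb), but its level was 0.223 and 0.256 in control replicates 1 and 2 and 7.92 in control replicate 3. The ligands BMP5, INHBA, NODAL, LEFTY1 and LEFTY2 stayed below 0.1 CPM per kb in both group means.

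**Figure D2:**
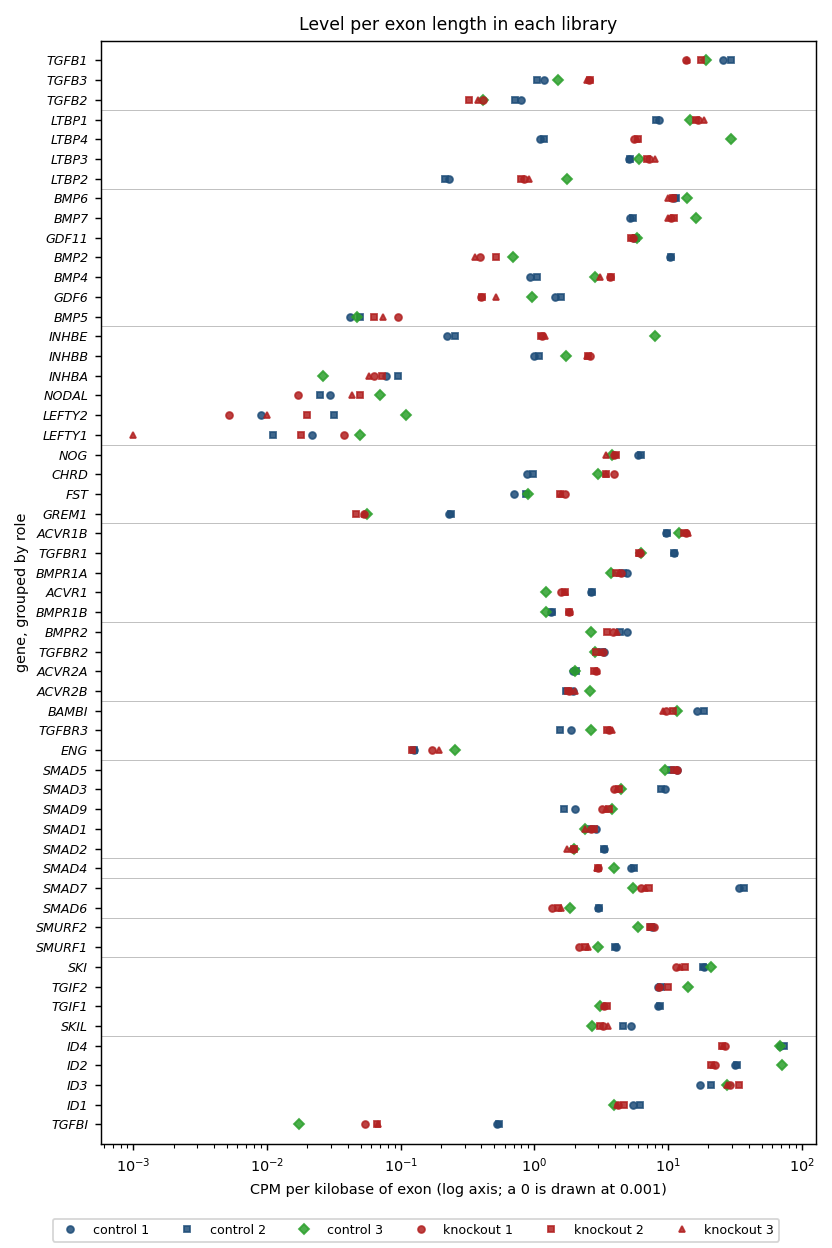
CPM per kilobase of exon (horizontal log axis) of the 55 genes (rows, grouped by role and ordered by their mean) in each library, with controls 1 and 2 in blue, control 3 in green and knockout libraries in red. ID4 sits near 70 in the controls and near 25.7 in the knockout libraries, and NODAL, LEFTY1 and LEFTY2 lie at the low end.

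Of the 3 TGF-beta ligands, TGFB1 was lower and TGFB3 higher in the knockout, and TGFB2 did not pass (all genes, 16.6% called). TGFB1, the most widely expressed isoform (ENSG00000105329, chromosome 19 of GRCh37, 41807492 to 41859827, minus strand), had 8143, 9343 and 6037 counts in control and 3721, 5009 and 3963 in knockout libraries. Every control lay above every knockout library, with control replicate 3 the lowest control. TGFB1 fell by 0.74 on the log2 scale (SE 0.19, edgeR adjusted p = 0.0462, and 3.29e-08 to 0.183 over the 12 alternatives), and its log2 fold change was -0.92 without control replicate 3. The exons of HNRNPUL1 on the opposite strand cover 6.6% of those of TGFB1.

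TGFB3, an isoform known from palate and lung development, had 595, 529 and 753 counts in control and 1122, 1193 and 1144 in knockout libraries. All knockout libraries were above all controls, and it rose by 1.04 on the log2 scale (SE 0.17, edgeR adjusted p = 0.0147, and 6.15e-10 to 0.0941 over the alternatives), with a log2 fold change of 1.16 without control replicate 3. TGFB2 had 470, 418 and 241 counts against 209, 173 and 203, without overlap. Its log2 fold change of -0.79 did not pass (edgeR adjusted p = 0.103), although that of -1.06 without control replicate 3 did, and 22.7% of its exon length is shared with TGFB2-OT1 on the same strand.

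Most latent TGF-beta binding proteins can hold the latent ligand complex in the matrix. With all 6 libraries 1 of the 4 listed passed, beside 16.6% of all genes. Without control replicate 3 the 4 were called higher, beside 65.6% of all genes called (32.4% higher). LTBP3 had 5734, 5766 and 6795 counts in control and 6960, 7090 and 8111 in knockout libraries, a narrow separation in which control replicate 3 came next to the lowest knockout library. It rose by 0.43 on the log2 scale (SE 0.11, edgeR adjusted p = 0.043, and 1.72e-05 to 0.171 over the alternatives), and the value without control replicate 3 was 0.49. LTBP1 had 6071, 5774 and 10330 counts against 10299, 10350 and 12015, with control replicate 3 level with the knockout libraries in counts. In CPM the groups did not overlap, with control replicate 3 at 107 against 122, 118 and 136 in the knockout libraries. The log2 fold change of LTBP1 was 0.71 (SE 0.24, edgeR adjusted p = 0.0861) with all libraries and 1.0 (SE 0.08), which passed, without control replicate 3.

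LTBP4 showed the widest gap between controls among the binding proteins. There were 861 and 927 counts in control replicates 1 and 2, 23157 in control replicate 3, and 3813, 4245 and 4218 in the knockout libraries, so the knockout level lay between those of the controls. The log2 fold change of LTBP4 was -0.87 (SE 1.23) with all libraries and 2.32 (SE 0.09) without control replicate 3, a reversal of sign. LTBP2, with 202, 186 and 1547 counts against 639, 634 and 733, had the same order of levels, and its log2 fold change went from 0.21 (SE 0.82) to 1.91 (SE 0.12).

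Of the 7 BMP and GDF ligands, 2 were called with all 6 libraries and both were lower, beside 16.6% of all genes called (8.67% lower). Without control replicate 3 there were 2 higher and 2 lower calls, beside 65.6% of all genes. BMP2, a strong inducer of bone formation, had 3559 and 3606 counts in control replicates 1 and 2 but 236 in control replicate 3, and 116, 160 and 113 in the knockout libraries. Control replicate 3 was therefore far below the other controls, though above every knockout library. BMP2 fell by 4.09 on the log2 scale (SE 0.96, edgeR adjusted p = 0.0365, and 1.01e-18 to 0.158 over the alternatives), and its log2 fold change was -4.66 without control replicate 3.

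GDF6, a ligand of skeletal and eye development, had 517, 568 and 343 counts in control and 125, 133 and 169 in knockout libraries. The lowest control was again control replicate 3, and the groups stayed apart. GDF6 fell by 1.59 on the log2 scale (SE 0.25, edgeR adjusted p = 0.0133, and 1e-10 to 0.0931 over the alternatives), and its log2 fold change was -1.81 without control replicate 3. BMP4, which patterns the ventral mesoderm, had 279 and 311 counts in control replicates 1 and 2, 855 in control replicate 3, and 951, 1017 and 852 in the knockout libraries. The log2 fold change of BMP4 was 1.12 (SE 0.45, edgeR adjusted p = 0.134) and, without control replicate 3, 1.8, and an unnamed antisense gene covers 16.3% of its exons. BMP6, the most abundant BMP ligand per length in control replicates 1 and 2, had a log2 fold change of -0.21 (edgeR adjusted p = 0.237), or -0.14 without control replicate 3. BMP7, a ligand of kidney development, had 2748, 2873 and 8490 counts against 4788, 5296 and 4822, with the knockout libraries between control replicate 3 and the other controls. The log2 fold change of BMP7 was 0.23 (SE 0.44, edgeR adjusted p = 0.742) with all libraries, and 0.95 (SE 0.08), which passed, without control replicate 3 (adjusted p from 1.01e-09 to 0.983 over the alternatives, in which its sign also turned).

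Among activin-type ligands INHBB, the activin B subunit, had 311, 331 and 538 counts in control and 699, 707 and 695 in knockout libraries. Its knockout libraries were all above the controls, and it rose by 0.99 on the log2 scale (SE 0.25, edgeR adjusted p = 0.0418, and 1.05e-09 to 0.163 over the alternatives), with a log2 fold change of 1.25 without control replicate 3. INHBE, the activin E subunit, had 66 and 75 counts in control replicates 1 and 2, 2331 in control replicate 3 and 291, 298 and 323 in the knockout libraries. The log2 fold change of INHBE was -1.28 (SE 1.32), and 2.23 (SE 0.15) without control replicate 3.

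With all 6 libraries 1 of the 4 extracellular antagonists was called, beside 16.6% of all genes. Without control replicate 3, 2 were called higher and 2 lower, beside 65.6% of all genes. FST, which encodes follistatin and binds activins, had 189, 229 and 237 counts in control and 391, 376 and 386 in knockout libraries. All 3 controls were low and close together, control replicate 3 included, and FST rose by 0.97 on the log2 scale (SE 0.17, edgeR adjusted p = 0.0175, and 3.18e-07 to 0.109 over the alternatives), with the value without control replicate 3 at 1.0. GREM1, a secreted BMP antagonist, had 330, 339 and 80 counts against 66, 60 and 69, and CHRD, which encodes chordin, another BMP antagonist, had 565, 623 and 1913 against 2193, 2013 and 2012. In both genes control replicate 3 was far from the other controls and just outside the range of the knockout libraries. Their log2 fold changes were -1.78 (edgeR adjusted p = 0.0675) and 1.16 (0.144) with all libraries, and -2.24 (SE 0.15) and 1.93 (SE 0.10) without control replicate 3, where both passed. Over the alternatives the adjusted p was 1.72e-11 to 0.207 for GREM1 and 2.01e-13 to 0.322 for CHRD. The exons of THPO on the other strand cover 5.4% of those of CHRD. NOG, which encodes noggin, had 1107, 1148 and 704 counts against 632, 681 and 583, and its CPM overlapped between groups (log2 fold change -0.49, edgeR adjusted p = 0.177, and -0.71 without control replicate 3, which passed).

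**Figure D3:**
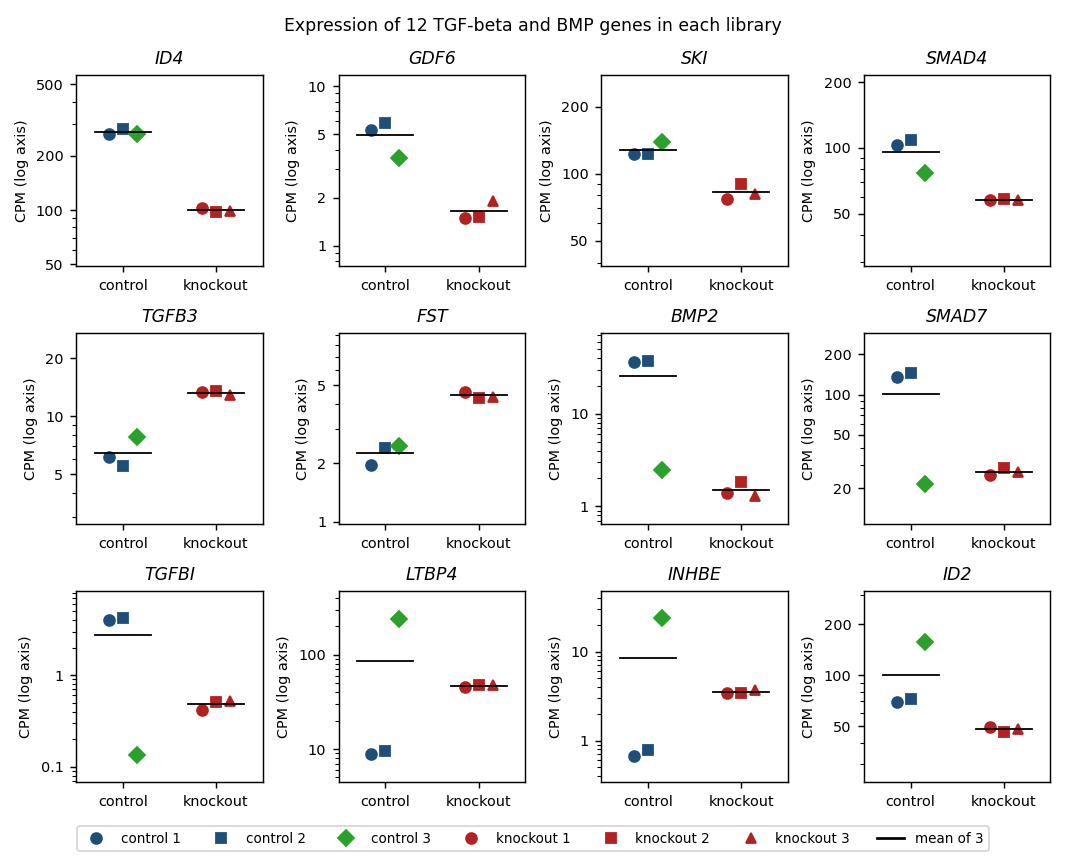
CPM (vertical log axis) of 12 genes in each control and knockout library, with control replicate 3 as a green diamond and a black line at the mean of each group of 3. The groups are apart for ID4, GDF6, SKI, SMAD4, TGFB3 and FST, while for LTBP4 and INHBE the knockout libraries lie between control replicate 3 and the other controls.

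With all 6 libraries the receptor genes ACVR2A, BMPR1B and TGFBR3 were called higher and no receptor gene was called lower (all genes, 16.6% called). Without control replicate 3 these genes and ACVR1B were called higher, and TGFBR1, ACVR1, BMPR1A and BMPR2 lower (all genes, 65.6%). ACVR2A, a type II receptor for activins and BMPs, had 1228, 1268 and 1253 counts in control and 1572, 1576 and 1669 in knockout libraries. Control replicate 3 did not stand apart here, and ACVR2A rose by 0.52 on the log2 scale (SE 0.11, edgeR adjusted p = 0.0251, and 1.77e-06 to 0.136 over the alternatives), with a value of 0.49 without control replicate 3. BMPR1B, a BMP type I receptor, had 851, 853 and 770 counts in control and 1011, 1045 and 1066 in knockout libraries (log2 fold change 0.49, SE 0.13, edgeR adjusted p = 0.0454, and 0.000305 to 0.18 over the alternatives, with 0.41 without control replicate 3).

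TGFBR3, the co-receptor betaglycan that presents TGF-beta to its type II receptor, had 1559, 1276 and 2201 counts against 2606, 2612 and 2883. Control replicate 3 was the highest control, and TGFBR3 rose by 0.84 on the log2 scale (SE 0.21, edgeR adjusted p = 0.0399, and 1.61e-09 to 0.155 over the alternatives), with a value of 1.06 without control replicate 3. TGFBR1, the type I receptor for TGF-beta, had 8582, 8439 and 4881 counts against 4180, 4243 and 4265, with every knockout library below every control. Its log2 fold change was -0.63 (SE 0.22, edgeR adjusted p = 0.095), and -0.88 (SE 0.07) without control replicate 3 (adjusted p from 6.42e-10 to 0.251 over the alternatives). The activin type I receptor ACVR1B had 0.38 (edgeR adjusted p = 0.0685) and, without that library, 0.46, also with no overlap between groups. ACVR1, a BMP type I receptor, had -0.40 (SE 0.30) and -0.72 (SE 0.08), with adjusted p from 6.53e-08 to 0.712 over the alternatives. TGFBR2, BMPR1A and BMPR2, the ligand-binding receptors of both branches, had log2 fold changes of -0.01, -0.05 and -0.06 (SE 0.12, 0.12 and 0.23) with all libraries and -0.10, -0.19 and -0.31 without control replicate 3.

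BAMBI, a decoy receptor that lacks the kinase domain and is induced by the pathway, had 3442, 3830 and 2415 counts against 1732, 2048 and 1743. Control replicate 3 lay between the other controls and the knockout libraries, and the log2 fold change was -0.66 (SE 0.19, edgeR adjusted p = 0.0604), or -0.86 without control replicate 3 (adjusted p from 1.52e-08 to 0.21 over the alternatives).

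The common SMAD was lower in the knockout. SMAD4, required for most transcriptional responses of both branches (ENSG00000141646, chromosome 18 of GRCh37, 48554898 to 48611415, plus strand), had 10015, 10406 and 7463 counts in control and 4899, 5127 and 5095 in knockout libraries. The knockout libraries agreed closely (58.1 ± 0.377 CPM, SD, n = 3) and lay below every control (96.1 ± 16.6 CPM, SD, n = 3). SMAD4 fell by 0.73 on the log2 scale (SE 0.14, edgeR adjusted p = 0.0216, and 5.88e-10 to 0.114 over the alternatives), with a value of -0.89 without control replicate 3.

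None of the 5 receptor-regulated SMADs passed with all 6 libraries, beside 16.6% of all genes. Without control replicate 3, 1 was called higher and 2 lower, beside 65.6% of all genes. SMAD2 and SMAD3, of the TGF-beta and activin branch, had log2 fold changes of -0.61 (SE 0.20) and -0.90 (SE 0.28), with edgeR adjusted p of 0.0914 and 0.0744, and -0.84 and -1.20 without control replicate 3, where both passed. SMAD3 had 9270, 8581 and 4299 counts in control and 3297, 3753 and 3647 in knockout libraries, with control replicate 3 between the other controls and the knockout libraries. Of the BMP branch SMAD1 and SMAD5 had log2 fold changes of -0.02 and 0.12 with all libraries and -0.11 and 0.02 without control replicate 3. SMAD9 had 0.46 (SE 0.31) and 0.86 (SE 0.09), of which the latter passed (adjusted p from 6.85e-08 to 0.639 over the alternatives).

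The inhibitory SMADs are transcribed in response to the pathway and block its receptors. SMAD6, mainly an inhibitor of BMP signals, had 2496, 2521 and 1518 counts in control and 970, 1127 and 1205 in knockout libraries, and fell by 0.83 on the log2 scale (SE 0.22, edgeR adjusted p = 0.0479, and 5.65e-10 to 0.188 over the alternatives), with a value of -1.07 without control replicate 3. SMAD7, which blocks both branches, had 13120 and 13928 counts in control replicates 1 and 2, 2078 in control replicate 3 and 2102, 2483 and 2324 in the knockout libraries. Every knockout library was thus above control replicate 3 and far below the other controls. The log2 fold change of SMAD7 was -1.92 (SE 0.64, edgeR adjusted p = 0.089) with all libraries and -2.43 without control replicate 3 (adjusted p from 1.51e-16 to 0.253 over the alternatives).

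SMURF1, a ubiquitin ligase that works with the inhibitory SMADs to degrade receptors and SMADs, had 2477, 2423 and 1806 counts against 1131, 1309 and 1388. SMURF1 fell by 0.66 on the log2 scale (SE 0.16, edgeR adjusted p = 0.0389, and 2.69e-08 to 0.171 over the alternatives), with a value of -0.82 without control replicate 3, and TRRAP on the opposite strand covers 11.7% of its exons. Its paralog SMURF2 had a log2 fold change of 0.11 (SE 0.12), which was -0.02 without control replicate 3 and also turned negative without TMM scaling.

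Promoters of the feedback genes SMAD6, SMAD7 and BAMBI and of ID4 are shown because these genes are known targets of SMADs and were lower in the knockout than in control replicates 1 and 2. The windows hold the 250 bases upstream of a RefSeq start on GRCh38.p14 (SMAD6, chr15:66701986-66702235, plus strand; SMAD7, chr18:48950966-48951215, minus strand; BAMBI, chr10:28677271-28677520, plus strand; ID4, chr6:19837120-19837369, plus strand). Capitals mark matches on either strand to the palindromic SMAD-binding sequence GTCTAGAC, the CAGA box CAGACA, the GC-rich BMP-responsive sequences GGCGCC and GGAGCC, or the TGIF core TGTCA.
SMAD6: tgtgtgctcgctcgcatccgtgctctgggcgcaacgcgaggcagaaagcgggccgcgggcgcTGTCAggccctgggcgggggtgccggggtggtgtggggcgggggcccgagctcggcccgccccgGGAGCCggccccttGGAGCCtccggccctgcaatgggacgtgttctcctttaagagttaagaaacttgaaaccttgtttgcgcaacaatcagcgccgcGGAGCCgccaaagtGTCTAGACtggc
SMAD7: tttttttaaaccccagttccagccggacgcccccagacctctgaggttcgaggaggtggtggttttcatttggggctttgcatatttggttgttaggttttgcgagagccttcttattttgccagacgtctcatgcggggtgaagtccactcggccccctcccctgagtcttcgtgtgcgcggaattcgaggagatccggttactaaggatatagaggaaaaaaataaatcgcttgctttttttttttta
BAMBI: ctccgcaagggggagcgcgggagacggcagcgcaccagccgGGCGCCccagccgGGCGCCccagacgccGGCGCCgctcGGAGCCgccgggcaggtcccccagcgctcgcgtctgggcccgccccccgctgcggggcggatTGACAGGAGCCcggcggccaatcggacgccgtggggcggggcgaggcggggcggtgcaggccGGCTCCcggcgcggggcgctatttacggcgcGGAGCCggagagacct
ID4: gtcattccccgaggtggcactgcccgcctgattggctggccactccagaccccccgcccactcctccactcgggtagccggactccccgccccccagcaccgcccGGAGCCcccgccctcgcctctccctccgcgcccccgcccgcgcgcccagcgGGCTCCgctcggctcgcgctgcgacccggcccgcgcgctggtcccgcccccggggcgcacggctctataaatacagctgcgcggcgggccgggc
The SMAD6 window held 1 GTCTAGAC, 3 GGAGCC and 1 TGTCA, and the BAMBI window 3 GGCGCC, 4 GGAGCC and 1 TGTCA, where a TGTCA and a GGAGCC read on opposite strands abut. The ID4 window held 2 GGAGCC, and the SMAD7 window shown, the most upstream of 3, none of the 5 motifs, which says only that these letters are not in it. Of the other SMAD7 windows 1 held no match and the other 1 GGAGCC and 1 TGTCA. RefSeq windows were found for 47 of the 55 genes, some with several starts, and GTCTAGAC was in 1 of the 47 genes (0.182% of 35116 promoters of all genes). CAGACA was in 12 of the 47 (13.6% of promoters), GGCGCC in 18 (16.4%), GGAGCC in 30 (30.6%) and TGTCA in 18 (34%), and a gene with several windows had more chances of a match.

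Of the nuclear corepressors SKI was called with all 6 libraries (all genes, 16.6% called). SKI, which binds SMAD4 and recruits histone deacetylases (ENSG00000157933, chromosome 1 of GRCh37, 2158827 to 2241652, plus strand), had 11974, 11745 and 13446 counts in control and 6487, 7885 and 7198 in knockout libraries. Control replicate 3 was here the highest control, on the side away from the knockout libraries. SKI fell by 0.63 on the log2 scale (SE 0.10, edgeR adjusted p = 0.0143, and 8.95e-07 to 0.0984 over the alternatives), with a value of -0.60 without control replicate 3. TGIF1, a homeodomain corepressor of SMAD2, had 6610, 6815 and 2436 counts against 2255, 2471 and 2373, and in CPM control replicate 3 was the lowest of the 6 libraries (log2 fold change -1.0, SE 0.37, edgeR adjusted p = 0.112, and -1.38 without control replicate 3, which passed). SKIL and TGIF2 had log2 fold changes of -0.35 (SE 0.24) and -0.20 (SE 0.22) with all libraries and -0.61, which passed, and 0.05 without control replicate 3.

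The direct targets include the ID genes, which are induced by BMP signals, and TGFBI, a matrix protein induced by TGF-beta. ID4 (ENSG00000172201, chromosome 6 of GRCh37, 19837601 to 19842428, plus strand) had 25716, 27205 and 25720 counts in control and 8657, 8550 and 8748 in knockout libraries. Control replicate 3 was level with the other controls, and all knockout libraries were far below them. In CPM the level went from 271 ± 10.3 to 99.7 ± 2.74 (SD, n = 3 each). ID4 fell by 1.44 on the log2 scale (SE 0.08, edgeR adjusted p = 0.00136), and the adjusted p stayed at or below 0.0437 in each of the 12 alternatives, with a log2 fold change of -1.49 without control replicate 3.

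ID2 had 6787 and 6940 counts in control replicates 1 and 2, 15289 in control replicate 3 and 4188, 4079 and 4235 in the knockout libraries. The groups did not overlap, and the log2 fold change was -1.06 (SE 0.33, edgeR adjusted p = 0.0731) with all libraries and -0.59 (SE 0.07) without control replicate 3. ID1 and ID3 did not pass, with log2 fold changes of -0.24 (SE 0.21) and 0.45 (SE 0.19), but were called lower (-0.44) and higher (0.61) without control replicate 3. TGFBI had 392 and 403 counts in control replicates 1 and 2, 13 in control replicate 3 and 35, 45 and 46 in the knockout libraries. Control replicate 3 was thus the lowest of the 6 libraries, and the log2 fold change was -2.52 (SE 1.04, edgeR adjusted p = 0.143, and 1.75e-13 to 0.511 over the alternatives), and -3.11 without control replicate 3.

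The remaining tested genes ACVR2B, ENG, GDF11, BMP5 and INHBA passed neither with all libraries nor without control replicate 3. Their log2 fold changes with all libraries were -0.15, -0.06, -0.09, 0.75 and -0.05, and without that library 0.01, 0.34, -0.10, 0.73 and -0.46. BMP5, a BMP ligand, had at most 32 counts in any library.

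**Figure D4:**
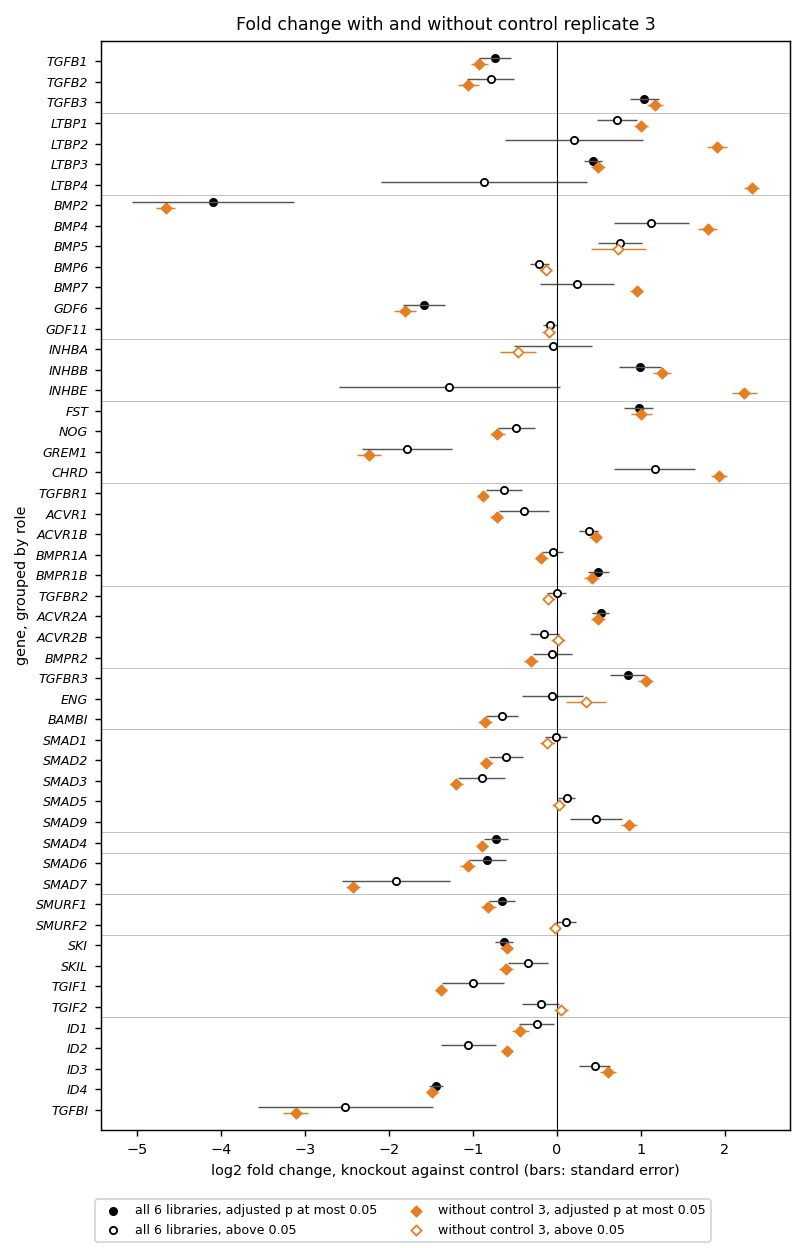
Log2 fold change of knockout against control (horizontal axis; bars, standard error) for the 52 tested genes, with all 6 libraries (circles) and without control replicate 3 (diamonds), filled where the edgeR adjusted p was at most 0.05. LTBP4 and INHBE go from -0.87 and -1.28 to 2.32 and 2.23 without control replicate 3, and ID4 is at -1.44 and -1.49.

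Of 102 other genes of the pathway, listed by role, 88 could be tested and 19 passed (10 higher, 9 lower), which is 21.6% beside 16.6% of all genes. At a 2-fold change or more 11 did so, 12.5% beside 7.06%. Without control replicate 3, 67 passed (34 higher, 33 lower), which is 75.3% beside 65.6%. Without knockout replicate 1 or 3 there were 3 calls each time, beside 0.763% and 0.870% of all genes. The extracellular protease TLL1, which cleaves chordin, had 28, 26 and 8 counts in control and 641, 653 and 688 in knockout libraries, and rose by 5.15 on the log2 scale (SE 0.47, edgeR adjusted p = 0.0037, and 2.22e-39 to 0.0437 over the alternatives). ACVR1C, the type I receptor ALK7, had 270, 220 and 325 counts against 1076, 954 and 1175 and rose by 2.13 (SE 0.20, edgeR adjusted p = 0.00404). In both genes every knockout library was far above every control.

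BMP3, a BMP that acts largely as an antagonist, rose by 1.92 on the log2 scale (329, 238 and 393 counts against 1029, 1097 and 1125), and NBL1, a secreted BMP antagonist, by 1.12. DCN, which encodes decorin, a proteoglycan that binds TGF-beta, had at most 1 count in each control and 30 to 33 in the knockout libraries. Of the 16 SMAD-responsive genes tested, 1 was called higher (MSX1, a homeobox gene named after its values were seen, with a log2 fold change of 0.80), 2 were called lower and 13 were not called, beside 16.6% of all genes called. Their median log2 fold change was 0.08, against -0.01 for all genes, and without control replicate 3 there were 4 higher and 5 lower calls, beside 65.6%. HEY1, a transcriptional repressor, fell by 1.69 (7288, 7498 and 4328 counts against 1677, 1896 and 1750), and CDKN2B, a cyclin-dependent kinase inhibitor, by 1.33 (7378, 6985 and 3090 against 1988, 2131 and 2114). TGFB1I1, a focal adhesion adaptor, fell by 1.51, FSTL3, an activin-binding protein, by 1.32, and BMPER, a BMP regulator, by 1.28. The edgeR adjusted p of these genes lay between 0.00373 for DCN and 0.0414 for FSTL3. Over the alternatives the highest adjusted p was 0.0457 for DCN and 0.0478 for ACVR1C, which like TLL1 kept their calls wherever an adjusted p was given, but 0.0546 for BMP3, 0.0719 for HEY1, 0.0835 for TGFB1I1, 0.095 for NBL1, 0.104 for BMPER, 0.155 for CDKN2B and 0.17 for FSTL3. When 1 library was left out, BMPER, CDKN2B and FSTL3 passed in no fit other than that without control replicate 3. PMEPA1, a TGF-beta-induced gene whose product sequesters SMAD2 and SMAD3, was chosen here after its values were seen and did not pass. It had 4490, 4859 and 903 counts against 681, 766 and 679 (a log2 fold change of -2.11, SE 0.59, edgeR adjusted p = 0.0551). Its control replicate 3 was far below the other controls, and without it the log2 fold change was -2.60, which passed (adjusted p from 1.3e-16 to 0.191 over the alternatives).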

How the data were processed

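RNA was measured in 6 libraries, grouped by their labels into 3 control and 3 knockout libraries. The authors deposited counts per Ensembl gene as whole numbers, with no normalization. Per their methods the libraries were made from poly(A) RNA, kept strand and were quantified with Salmon on hg38, whereas the processing notes of the labels name STAR 2.7.10b, featureCounts 2.0.0 and hg38, and the labels' protocol names hg19. The annotation release and the use of strand in counting are not given in the sources used here, so genes with overlapping partners are uncertain. Of 62754 genes, 60878 matched a symbol in GENCODE v44 lifted to GRCh37, which also gave positions, exon lengths and overlaps, and CRIPTO was matched through a RefSeq synonym. Promoters came from RefSeq (GRCh38.p14).

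Counts were scaled by TMM, filtered with filterByExpr (minimum count 10) and tested with the two-sided quasi-likelihood test of edgeR 4.0.16 in R 4.3.3, with Benjamini-Hochberg adjustment over 20992 genes. The common dispersion was 0.0854, with 2.44 prior degrees of freedom. This test gives no standard error, so each SE was taken as the absolute log2 fold change divided by the square root of the F statistic. Total counts per library lay between 88361827 and 93346824. Alternatives (12) were DESeq2 1.42.0, limma-voom (limma 3.58.1), library size without TMM, no filter, at least 10 counts in every library, the replicate number as a block and leaving out each library in turn.

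The module, the 102 other pathway genes and the marker lists were chosen with earlier results of these data known. Genes named were those called with all 6 libraries, those called without control replicate 3 at a 2-fold change or more, those without overlap at that fold, and the most abundant of each role, together with the 10 largest calls of the other list. The other module genes were named to account for every member. The sequence GTCTAGAC was added to the motifs after the data were seen. Python 3.11.15 with matplotlib 3.10.9 drew the figures.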

Additional observations from a re-analysis of the deposited data

How the results depend on the processing

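DESeq2 called 5581 genes (26.6%) against 3491, 28 module genes (53.8%) against 15, and 10 of them at a 2-fold change or more (19.2%, beside 9.14% of all genes) against 4. Without a filter, 8 module genes were called (14.5%, beside 6.45% of all genes). With the replicate block 407 genes were called (334 at that fold), of which 1 was a module gene, ID4, at either threshold, and 7 other pathway genes (19 without the block). The labels number the replicates but do not say that libraries of the same number were paired. Deviations of same-numbered libraries from their group means had r of 0.010, 0.031 and -0.036 across genes. With 3 libraries per group and control replicate 3 apart from the other controls, these values cannot decide whether the numbers pair the libraries. A call lost under the block says nothing of the size of the change. Leaving out each library in turn gave 167 to 14221 genes, and 156 to 4965 at that fold against 1482. Module genes then numbered 1 to 41, or 1 to 20 at that fold, and other pathway genes 3 to 67, the highest each time without control replicate 3. Without control replicates 1 and 2 the module calls were 2 and 1 (3.85% and 1.92%), beside 4.89% and 3.71% of all genes. Without each knockout replicate there was 1 (1.92%), beside 0.763%, 2.31% and 0.870% of all genes for replicates 1 to 3.

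In all, 12 of the 52 module genes tested had a fitted change of either sign over the alternatives. BMP7 ranged from -0.06 to 0.95, INHBA from -0.46 to 0.30, ENG from -0.25 to 0.34, TGIF2 from -0.36 to 0.05, ACVR2B from -0.27 to 0.01, TGFBR2 from -0.12 to 0.05 and SMAD1 from -0.13 to 0.06, and the other 5 follow. The sign of LTBP4 turned with limma-voom (0.78) and the replicate block (1.05), as did that of INHBE (0.58 and 0.85), and that of SMURF2 with library size without TMM (-0.0020). Over the fits that left out 1 library, the log2 fold changes ranged from -1.42 to 2.32 for LTBP4, -1.84 to 2.23 for INHBE, -0.23 to 1.91 for LTBP2, -0.31 to 0.0894 for BMPR2 and -0.0245 to 0.15 for SMURF2. The turn came without control replicate 3 for LTBP4, INHBE and SMURF2, without control replicate 1 or 2 for LTBP2, and without control replicate 1, control replicate 2 or knockout replicate 2 for BMPR2. The cause was not tested. DESeq2 gave no adjusted p for LTBP4 and INHBE.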
